A study of Bos taurus with 2 samples.

Results

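The genes PLAC1, PLAC8 and PLAC9 were named for their expression in placenta, and the array used here carried 10 probes under these names, of 51282 probes in all. Their transcripts were compared between the testes of crossbred and Zebu bulls. The crossbred bulls were Holstein Friesian crosses with 50 to 75% exotic inheritance, and the Zebu bulls were Tharparkar. All bulls were aged 24 months, and the right testis of each was taken by unilateral castration. RNA of 3 bulls was pooled in each group, and each pool was hybridised to 1 Agilent bovine array with the dye Cy3. Each group therefore had 1 sample, so that no replicate error, no test between groups and no p-value can be given, and the spread between bulls is unknown. The PLAC genes were selected on their measured values, so the differences below are descriptions of these 2 pools. In pools of whole testis, fewer cells of a type and less RNA per cell cannot be told apart.

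PLAC1 is an X-linked gene of the trophoblast whose protein carries a region like that of the zona pellucida proteins. PLAC8, also called onzin, is a small cysteine-rich protein of leukocytes and epithelia, and in cattle it is best known from the endometrium and the embryo. PLAC9 is a small secreted protein found mainly in stromal cells. Pooled testis holds germ cells, Sertoli cells, Leydig cells, peritubular cells, vessels and blood cells, so a transcript in it can come from any of these.

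The array's name PLAC8 covered more than 1 gene. Of its 7 probes, 4 were designed on the RefSeq transcript NM_001025325, which RefSeq now names PLAC8A, and 2 on NM_001076987, now PLAC8B. The remaining probe was designed on an expressed sequence tag (EST), DV786390. In the RefSeq annotation of the assembly ARS-UCD 2.0, PLAC8B and PLAC8A lie next to each other, in the order LIN54, COPS4, PLAC8B, PLAC8A, COQ2 and HPSE. On the HGSC Btau 3.1 coordinates that the array annotation gives, the PLAC8B probes lay at chr6:101662321-101662380 and chr6:101662475-101662534. The PLAC8A probes lay at chr6:101727589-101727648, chr6:101727592-101727648, chr6:101727680-101727739 and chr6:101729984-101730043. All 6 were on the minus strand, and 65054 bases separated the facing ends of the probes of these genes.

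The probes of PLAC8A and PLAC8B are shown by their sequences because the report separates them by the transcript each was designed on. The probe of PLAC8A that starts at base 420 of the transcript is given whole, and the others by their first 30 bases:
PLAC8A, base 420: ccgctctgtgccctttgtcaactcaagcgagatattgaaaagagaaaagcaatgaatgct
PLAC8A, base 545: ctgttcagtgctatctcaccttaaatctta
PLAC8A, base 636: gaaatacatttctagtgctcctctctaaga
PLAC8B, base 495: ttcttctgtggtccctcctgacccagtgaa
PLAC8B, base 649: ggagtgttatcccttagttttgctaaatgg

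No stretch of more than 6 bases was shared between a PLAC8A and a PLAC8B probe. Probes at different places of 1 transcript shared as little, at most 5 bases for PLAC8A at 420 and 545 and 6 for PLAC8B. This comparison therefore cannot show that the probes measured different transcripts, and cross-hybridisation was not tested. The PLAC8A probes at bases 420 and 545 were 65 bases apart on the transcript and 2244 bases apart on the genome, so that 2179 bases between them are not in the transcript and these probes lie in different exons. Between the probes at bases 545 and 636 the distance was 31 bases on both. The PLAC8A probes thus sampled the transcript at 3 places and across a splice junction.

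At base 636 the array held a pair of PLAC8A probes that shared 57 of their 60 bases. They differed by the substitutions G50A, A58C and A59T, counted from the 5′ end, with the probe whose annotated position spanned 60 bases first. The match labels below give the spans of the annotated positions, 60 and 57 bases, and no genome sequence was compared. The probes also differ within the 57 bases, at G50A. They are shown over their last 30 bases because they act as a nearly repeated measurement at separate spots, 8 rows and 75 columns apart, and the differing bases are in capitals:
PLAC8A, base 636, full match: tgactgccattaaaaattaGtgtcttcAAc
PLAC8A, base 636, match over 57 bases: tgactgccattaaaaattaAtgtcttcCTc

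The EST probe under the name PLAC8 had no position in the array annotation. Its first 32 bases aligned with the last 30 bases of the PLAC8B probe at base 649, with 27 identical bases, 3 mismatches and 2 gapped positions, and this was the best alignment between any PLAC8 probes apart from the pair at base 636. Both stretches are shown for this likeness, the EST probe over its first 30 bases:
PLAC8B, base 649, last 30 bases: tccagcgtagtttctccttgctattaagtt
PLAC8 EST: tccaccgtaatttcctccttgcttttaaag

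Of the 10 PLAC probes, 9 gave signals well above background in both pools, and 1, the PLAC8 EST probe, in neither. Each had 1 spot per array, and no spot was saturated or marked as an outlier by the scanner software. Levels are given as the log2 of the background-subtracted signal minus the 75th percentile of the array, and a difference is crossbred minus Zebu. The ± value is the SD of a difference from the scanner software's own error estimate. It covers the spot, not the bulls. Repeated spots of a probe elsewhere varied by an SD of 0.29 on the crossbred and 0.18 on the Zebu array (5962 probes). Combined as if independent between arrays, these give an SD of 0.34 for a difference. A probe was counted as lower or higher at a difference of 1.5 or more in size, a fold of 2.83.

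By this limit, 4 PLAC probes were lower in the crossbred pool, 1 was higher and 4 of those above background were neither. All 4 lower probes were those of PLAC8A, while 2.99% of the 39804 probes well above background on at least 1 array were lower. The 1 higher probe was that of PLAC1, and 6.14% of the same 39804 probes were higher.

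**Figure D1:**
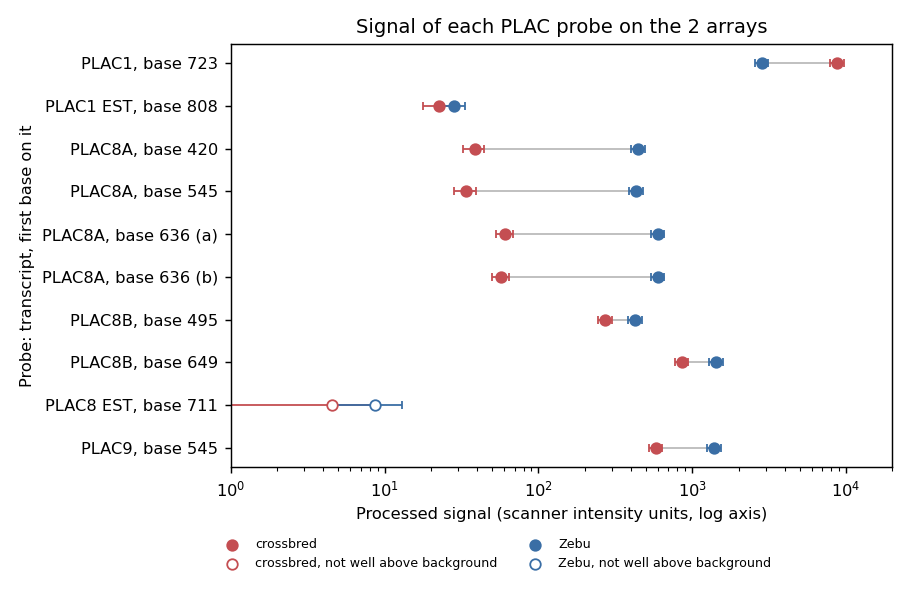
The horizontal axis gives the processed signal in scanner intensity units on a log scale, and each row is 1 probe, named by its transcript and first base. Label (a) is the PLAC8A probe whose annotated genome position spans 57 bases and (b) the one whose position spans 60. Red points are the crossbred pool, blue points the Zebu pool, bars the scanner software's error and open points a signal not well above background; the red bar of the PLAC8 EST probe runs off the axis to the left. The 4 PLAC8A probes are at 33.6 to 60.6 in the crossbred pool against 431 to 599 in the Zebu pool, and no other PLAC probe shows so wide a gap.

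PLAC8A, the gene next to PLAC8B, was lower in the crossbred pool at every probe. At base 420 the signal was 38.5 in the crossbred and 445 in the Zebu pool, a level of -4.93 against -1.47 and a difference of -3.46 ± 0.27. At base 545 it was 33.6 against 431, a level of -5.13 against -1.52 and a difference of -3.61 ± 0.28. These probes, on different sides of the splice junction, differed from each other by less than the error of either. At base 636 the probe that the study listed read 60.6 against 599, a difference of -3.24 ± 0.23. The other probe there read 57.5 against 599, a difference of -3.31 ± 0.23. The pair at this base therefore differed by 0.07, far less than the spread between repeated spots.

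The median of the 4 PLAC8A probes was -3.39, a 10.5-fold lower signal, with a range of 0.37 and an SD of 0.17 between probes. By probe, the fold was 11.0, 12.2, 9.43 and 9.93 in the order above. The probes read the same 2 pools and overlap in part, so they repeat the measurement and not the comparison of the breeds. At the signals of PLAC8A, repeated spots of other probes varied by an SD of 0.26 on the crossbred array (734 probes) and of 0.12 on the Zebu array (297 probes), which gives 0.29 for a difference. Of the probes well above background on both arrays, between 0.0494% and 0.0713% had a difference as low as those of PLAC8A. Probes not well above background on either or both arrays were left out of this share.

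The size of the PLAC8A difference rested on how background was treated, since the crossbred signals were dim. Before subtraction, the mean pixel intensity of the 4 spots was 103 to 130 in the crossbred and 514 to 709 in the Zebu pool. Local backgrounds were 30 to 41 and 32 to 46. At base 545 the crossbred mean was 103, the local background 41 and the processed signal 33.6. The processed signal was thus below the mean less the local background. Subtraction of the local background alone was not run. Without any subtraction the median difference was -2.30, a 4.94-fold lower signal. With the normexp model of background and an offset of 50 added to the signals of both arrays, it was -2.30, or 4.92-fold. Such an offset itself narrows the ratio of dim signals. All 4 probes stayed lower by 1.5 or more under both treatments.

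PLAC8B did not share this difference. At base 495 the signal was 271 in the crossbred and 425 in the Zebu pool, a level of -2.12 against -1.54 and a difference of -0.58 ± 0.21. At base 649 it was 853 against 1429, a level of -0.46 against 0.21 and a difference of -0.68 ± 0.20. Both PLAC8B probes were dimmer in the crossbred pool by more than the SD between repeated spots, but none reached the limit of 1.5. Their median was -0.63, a 1.54-fold lower signal. The median difference of PLAC8A was 2.76 below that of PLAC8B, or 6.78-fold, and the closest probes of these genes were 2.56 apart. Without background subtraction it was 1.72 below, or 3.29-fold.

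Reading the PLAC8 name as 1 gene hid this split. Over all 7 probes the median was -3.24, and over the 6 well above background it was -3.27, both values of PLAC8A. The EST probe had signals of 4.53 and 8.72, not well above background on either array, so no fold was given for it.

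**Figure D2:**
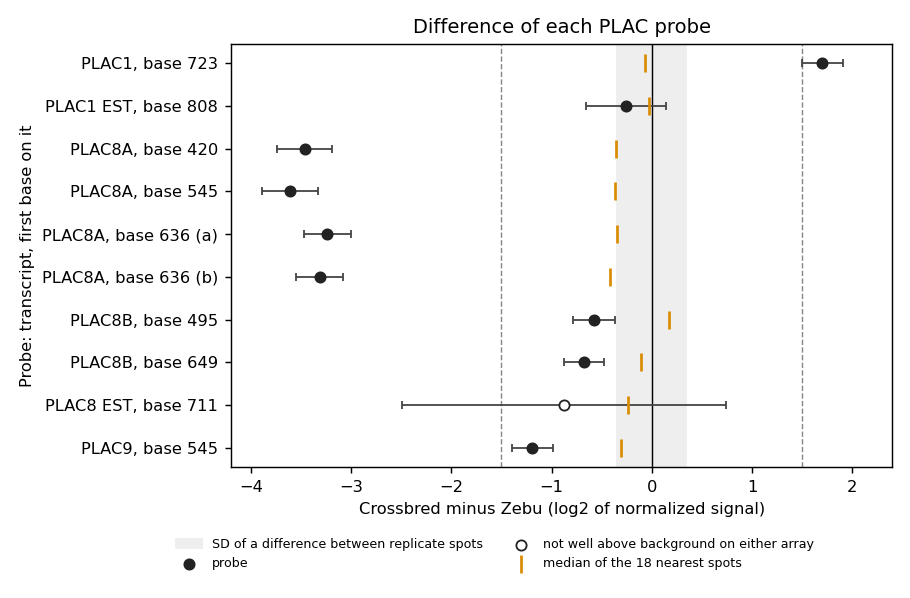
The horizontal axis gives the log2 difference, crossbred minus Zebu, and each row is 1 PLAC probe; (a) and (b) are as in the plot of signals. Bars are the SD from the scanner software's error, and the grey band is the SD of 0.34 combined from repeated spots of each array. Dashed lines mark 1.5 in either direction, and orange marks are the median of the 18 nearest spots. The PLAC8A probes lie together from -3.61 to -3.24, the PLAC8B probes at -0.68 and -0.58, PLAC9 at -1.19 and PLAC1 at 1.70 and -0.26.

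The split of the PLAC8 name by accession was made after its values were seen, so it was set beside the same split of other names. Of the names whose probes fell on at least 2 RefSeq accessions, each with at least 2 probes well above background, there were 24. The median gap between the accessions of a name was 0.56, and PLAC8 had the second widest, 2.76. Only GSTA3, a glutathione transferase (5.04), and CAST, the calpain inhibitor calpastatin (1.75), were also at 1.5 or more.

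The agreement of the PLAC8A probes was set beside that of other transcripts with at least 4 probes. There were 1612 such transcripts, and 962 of them had all probes well above background on both arrays. Every probe was lower by 1.5 or more for 2 of the 1612, or 0.124%, and these were PLAC8A and TSPY. Every probe was higher for 2 others, again 0.124%, namely DYDC2 and IGLL1. By gene name in place of accession, 1 of 1901 names with at least 4 probes had every probe lower, or 0.0526%, and it was TSPY, since the name PLAC8 also held the PLAC8B and EST probes. TSPY, a multicopy gene of the Y chromosome that is expressed in spermatogonia, had a median of -2.29 and probes from -2.30 to -2.06. Its near-identical copies may share a probe, so its level belongs to no single copy. None of the 1612 transcripts had a lower median than PLAC8A. The PLAC genes were selected on these same values, so the place of PLAC8A is a description and no support for its difference.

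Close agreement between probes was common on these arrays. Among the 962 transcripts whose 4 or more probes were all well above background, the range between the probes of a transcript had a median of 0.65, and 23.0% had a range as small as the 0.37 of PLAC8A. The median of these transcripts' differences was -0.14. PLAC8A, selected on its values, had the lowest median difference of these transcripts, while the agreement of its probes was not unusual.

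**Figure D3:**
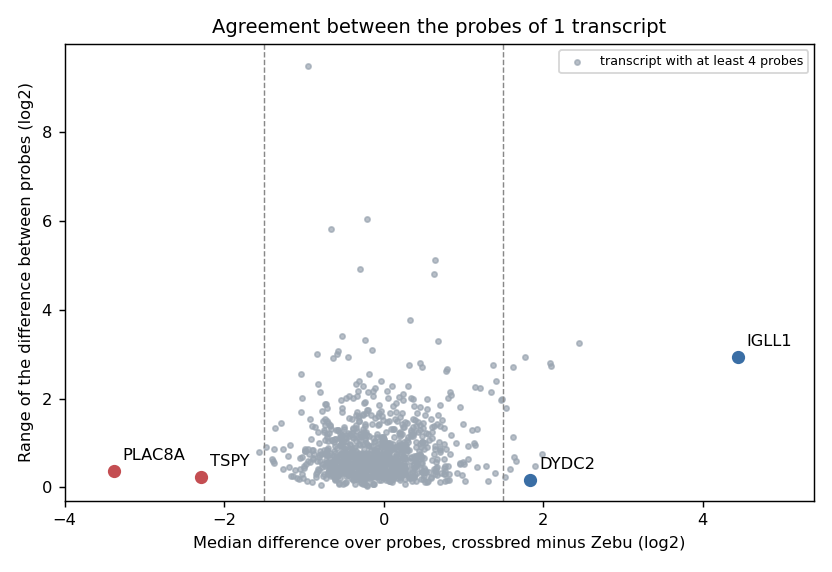
The horizontal axis gives the median log2 difference over the probes of a transcript, crossbred minus Zebu, and the vertical axis the range of the difference between its probes. Each point is 1 of the 962 transcripts with at least 4 probes, all well above background, and coloured points are those whose every probe passed 1.5, which the dashed lines mark. PLAC8A is the point farthest to the left, at -3.39 with a range of 0.37, and TSPY follows at -2.29.

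Position on the array was examined because the crossbred array held a dark patch of 544 spots with a median difference of -1.01 and a bright patch of 105 spots with a median of 1.10. None of the 10 PLAC spots lay in either patch. The PLAC8A probe at base 420 was 1 column from the dark patch, the listed PLAC8A probe 9 columns from it, and the PLAC8B probe at base 649 was 4 columns from the bright patch. The 18 spots nearest to each PLAC8A probe had median differences of -0.42 to -0.35. Of the 18 nearest to the probe at base 420, none was lower by 1.5 or more. With the median of the nearest spots subtracted, the PLAC8A probes were at -3.11, -3.24, -2.89 and -2.90 and the PLAC8B probes at -0.75 and -0.57.

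The neighbours of PLAC8A and PLAC8B on chromosome 6 did not pass the limit. Of the 5 nearest array names on each side, 8 had a probe well above background, with a median of -0.13 and none lower or higher by 1.5. COPS4, a subunit of the COP9 signalosome beyond PLAC8B, was at 0.09. COQ2, an enzyme of coenzyme Q synthesis on the other side of PLAC8A, was the lowest at -1.33, and LIN54, a DNA-binding subunit of the DREAM complex, was the highest at 1.34. An unnamed transcript whose probe lay 10078 bases beyond PLAC8A was at -0.88. HPSE, the gene of heparanase, was not well above background on either array.

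**Figure D4:**
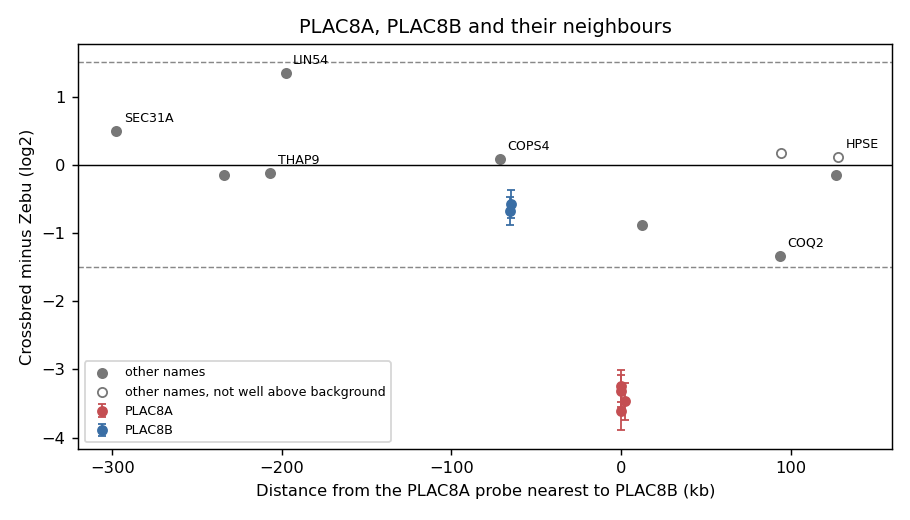
The horizontal axis gives the distance in kb from the PLAC8A probe nearest to PLAC8B, and the vertical axis the log2 difference, crossbred minus Zebu, of each probe. Red and blue points with bars (SD from the scanner software's error) are PLAC8A and PLAC8B, grey points are the nearest other array names and open points are not well above background on either array; dashed lines mark 1.5. The PLAC8A probes at -3.61 to -3.24 lie below every neighbour, the lowest of which, COQ2, is at -1.33.

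PLAC1, the trophoblast gene, was the only PLAC gene with a probe higher by the limit in the crossbred pool. Its probe on NM_001077057, at base 723, was located at bases 463143 to 463202 of the unplaced contig Un.004.53 of the same build, on the minus strand. The first 30 bases of this probe are shown because it carries the PLAC1 difference:
PLAC1, base 723: tgaccctcctatgtgtgtttttgaggaaaa
It had a signal of 8754 in the crossbred and 2824 in the Zebu pool, a level of 2.90 against 1.20 and a difference of 1.70 ± 0.20, or 3.25-fold (2.82 to 3.74 within that error). A difference this high was found for 4.03% of the probes well above background on both arrays. The 18 nearest spots had a median of -0.07. Its signal was far above background on both arrays, and its difference lay between 1.62 and 1.77 under every alternative run.

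The other PLAC1 probe, designed on an EST, gave no such difference. Its signal was 22.6 against 28.4, a level of -5.70 against -5.44 and a difference of -0.26 ± 0.40. These levels were near the lowest that counted as well above background, -5.78 and -5.94, and the difference was within its error. The EST is not among the accessions of PLAC1 in the RefSeq table used.

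On the contig of PLAC1, 7 probes of 4 names were read, and they had a median of 0.20. All lay on 1 side of PLAC1, at lower coordinates, and the nearest was 51824 bases away. CCDC160, a coiled-coil gene, was at 1.26 and 1.22, and HPRT1, an enzyme of purine salvage, at 0.20 and -0.38. PHF6, a chromatin protein, gave -1.58 at a probe and 0.74 at the other, so its probes did not agree, and the transcript TC427062 beside it was at -2.05. The PLAC1 difference was therefore not shared by the whole contig.

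PLAC9, the small secreted protein, had 1 probe, at chr28:34725497-34725556 on the minus strand and base 545 of NM_001038521. Its signal was 580 in the crossbred and 1390 in the Zebu pool, a level of -1.02 against 0.17. The difference was -1.19 ± 0.20, or 2.29-fold lower (1.98 to 2.63 within that error), and with the median of the nearest spots subtracted it was -0.88. PLAC9 was below the limit of 1.5 but beyond the spread of repeated spots. Of the probes well above background on both arrays, 3.90% were as low.
Of the 10 array names nearest to PLAC9, the 14 probes well above background had a median of -0.36 and none passed the limit. ANXA11, the annexin beside it, read from -0.97 to 1.04 over 4 probes.

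Relatives of the PLAC genes were read from a fixed list. PLAC8L1, which shares the cysteine-rich PLAC8 domain, had a signal of 533 in the crossbred and 189 in the Zebu pool, a difference of 1.57 ± 0.21, opposite in sign to PLAC8A. CNFN, cornifelin, which also has this domain, was at 0.24 ± 0.23. A further PLAC8L1 probe read 4.31 in the crossbred and 4.0 in the Zebu pool, not well above background on either array. Thus 1 of these 2 relatives was higher and none lower. Over 24751 gene names, each read by its brightest probe, 6.61% were higher and 2.05% lower. Of the relatives of PLAC1, ZP3 was at 0.09, ZP2 at 0.41 in its brightest probe and OOSP1, an oocyte-secreted protein, at 1.03. ZP4 was at least 3.63-fold higher in the crossbred pool, being not well above background in the Zebu pool. It was the only 1 of these 4 to pass the limit, beside the same 6.61%.

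Marker genes of cells that could hold these transcripts were compared beside them. The probe with the highest mean level stood for a gene. A side not well above background entered at the lowest level that was, where this was higher. A difference whose sign this reversed was entered as 0. Over 24751 gene names so read, the median was -0.05, with 6.61% higher and 2.05% lower. A negative difference of any size was found for 52.9% of them. Summed levels used the measured signals of every listed gene on the array, also of those not well above background. The lists were chosen with earlier results of these data known, and their part in the PLAC differences was not tested.

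For PLAC8A, markers of leukocytes and interferon-stimulated genes were read. The 9 granulocyte and monocyte markers above background had a median of 0.56, with 1 higher (S100A12, 2.92) and 1 lower (FCGR3A, -1.69). The summed level of all 10 on the array was 3.90 in the crossbred and 3.37 in the Zebu pool. S100A9 was not well above background on either array. The 11 T and NK cell markers had a median of -0.51, with 1 higher (GZMB, 2.64) and none lower, and summed levels of 2.89 and 3.09. Of the 4 plasmacytoid dendritic cell markers, 1 was higher (BLNK, 2.10) and none lower. The 9 macrophage markers had a median of 0, with 2 higher (AIF1, 1.95, and MARCO, 1.81). That median was the entry of CD163, whose measured difference was -0.45 with the crossbred side not well above background. The 9 B and plasma cell markers had a median of 0.75, with 3 higher. Of the leukocyte lists, that of T and NK cells had the lowest summed level relative to the Zebu pool, at -0.20.

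Of 16 interferon-stimulated genes on the array, 13 were above background, and 3 of these were lower by 1.5 or more while 10 did not pass. Their median was -1.05, and 12 of the 13 had a negative difference, beside 52.9% of all gene names. The 3 that passed were MX1, a GTPase with antiviral activity (-2.03), OAS1Y, an oligoadenylate synthetase (-1.67), and USP18, which removes ISG15 from proteins (-1.64). IFI6 was at -1.40, IFI27 at -1.05, ISG15 at -0.81 and BST2 at -0.62, while MX2 was at 0.09. IFIT3 entered at -0.02 with a measured difference of -0.06, being not well above background in the crossbred pool. The summed level of all 16 on the array was 3.77 in the crossbred and 4.91 in the Zebu pool. OAS1X, not well above background in the crossbred pool, was at least 2.08-fold lower, so its difference has no upper limit in size here. OAS2, OAS1Z and IFIT1 were not well above background on either array.

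For PLAC9, markers of stromal cells were read. Of 9 fibroblast markers, 8 had negative differences and 1, the collagen COL3A1, was lower by 1.5 or more at -1.51. Their median was -0.86, and their summed level was 4.09 in the crossbred and 5.05 in the Zebu pool. All 6 peritubular and smooth muscle markers were negative too, with a median of -0.77. So were all 6 Sertoli cell markers above background, with a median of -1.0 and 1 lower by the limit (DHH, -1.53). All 7 Leydig cell markers were negative, with a median of -0.57 and 2 lower by the limit (CYP17A1, -1.68, and HSD3B1, -1.77). The 7 endothelial markers had a median of 0.08.

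For PLAC1, markers of trophoblast and of germ cells were read. Of 9 trophoblast markers above background, 3 were higher. These were PAG2, a pregnancy-associated glycoprotein (2.70), ELF5, a transcription factor of trophoblast and epithelia (2.12), and CYP19A1, the aromatase, whose difference was at least 6.26 because it was not well above background in the Zebu pool. The median of the list was 0.73, and CSH2, a placental lactogen, was not well above background on either array. All 10 spermatid markers were positive and 8 were higher, with a median of 1.81. The 6 spermatocyte markers had a median of 0.40 and none was higher by 1.5. Of 4 epididymal markers none was above background, and of 2 red blood cell markers above background, HBA was at -2.15 and HBG at 1.09.

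**Figure D5:**
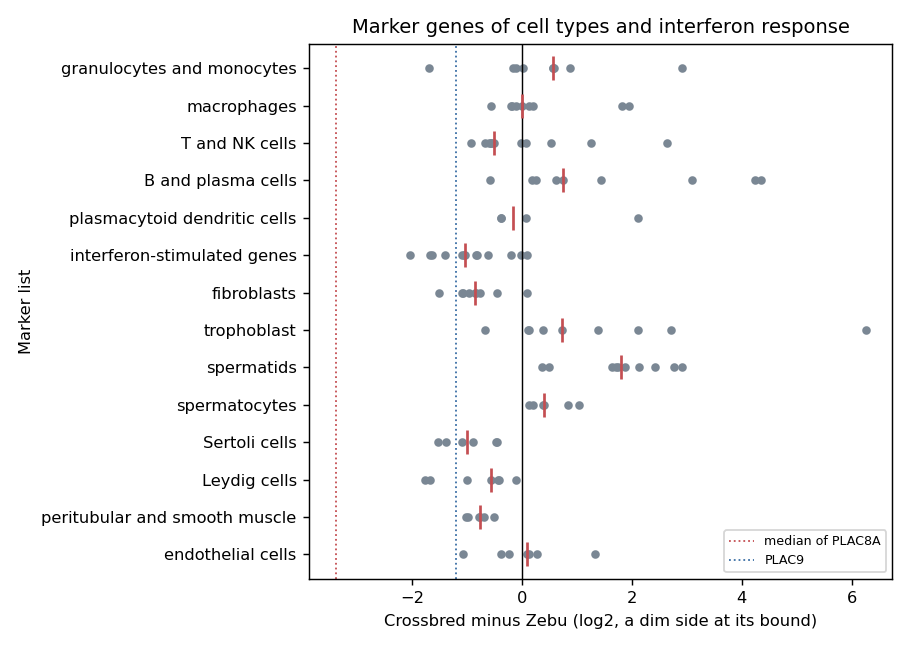
The horizontal axis gives the log2 difference, crossbred minus Zebu, and each row is 1 list of marker genes; grey points are genes, red marks the median of a list, and a side not well above background stands at its bound. Dotted lines mark the PLAC8A median of -3.39 and the PLAC9 value of -1.19. The interferon-stimulated genes and the fibroblast list are mostly negative, and the Sertoli cell, Leydig cell and peritubular lists are negative throughout. The spermatid list, with a median of 1.81, and the spermatocyte list are positive throughout.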

How the data were processed

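The authors deposited the scanner software's processed signal, an intensity from which background and array trends had been removed, together with mean pixel and local background intensities. They also deposited log2 values, shifted to the 75th percentile of each array, which served as an alternative. Of 62976 spots per array, 61657 were not controls, and 13 outlier spots were left out, which left 51279 probes. Spots of 1 probe were averaged as log2 processed signals, less the 75th percentile of all probes (signals of 1176 and 1233). A call required a difference of 1.5 with the brighter array well above background. The number of arrays limits the precision. Probes were named by the array and, through their accession, by the RefSeq table of ARS-UCD 2.0. Local alignments scored matches 1, mismatches -1 and gaps -2, extended at -1. The genes named were every PLAC probe, listed relatives and markers, and up to 5 nearest names on each side. Also named were transcripts with at least 4 probes, every one lower or every one higher, and names with accession gaps of 1.5 or more. The members and lists were chosen with earlier results of these data known, and the split of PLAC8 by accession was added after its values were seen. Python 3.11.15, biopython 1.88 and limma 3.58.1 were used, and the calculations were tested on simulated data. The sequence and position of 1 probe are not reported here.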

Additional observations from a re-analysis of the deposited data

How the results depend on the processing

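Alternatives were another percentile or median shift, quantile normalization, the authors' log2 values, the mean signal over spots, normexp or no background subtraction, detected spots alone, leaving out the patches, and the median of the 18 nearest spots subtracted. With normexp, the listed PLAC8A probe was at -2.31, the median of the 6 PLAC8 probes well above background at -2.23, that of PLAC8A at -2.30 and its gap to PLAC8B at -1.72. Without background subtraction these were -2.35, -2.26, -2.30 and -1.72, and with the nearest spots subtracted -2.89, -2.89, -3.0 and -2.34. The other alternatives moved them by less than the spread between repeated spots, and no direction changed. The count of PLAC8 probes lower by the limit was 4 under each, and at limits of 1 and 2. Over all alternatives the listed PLAC1 probe ranged from 1.62 to 1.77, PLAC9 from -1.22 to -0.88 and PLAC8B from -0.66 to -0.58. No paired analysis was possible because each group had 1 array. The dim crossbred signals limit the size of the PLAC8A difference, and neither breed, pool nor array can be told apart from the others.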
